A study of Mus musculus with 24 samples.

Results

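The leukocyte integrins described here are 8 genes, Itgb2, Itgam, Itgax, Itgal, Itgad, Itga4, Itgb7 and the integrin-binding adaptor Fermt3. They were taken by gene symbol from the 32561 genes of a deposited expression table, and each symbol matched 1 row. The table holds polyA RNA of 24 mouse aortas, 4 animals in each of 6 groups, which the labels give as separate animals aged 44 to 53 days. The groups with renal disease were Kl/Kl, homozygous for a recessive Klotho mutation, and comprised Bmp2+/+ males, Bmp2+/+ females and males homozygous for the Bmp2 mutation ∆UCS (∆UCS/∆UCS). Each had a group of controls with healthy renal function, of the same sex and Bmp2 genotype. The controls were heterozygous for the Klotho mutation (Klotho+/Kl), except replicate 1 of the Bmp2+/+ control males, which was Klotho+/+. Every animal was on the congenic 129S1/SvlmJ background and had moistened chow on the cage floor after weaning, and the ∆UCS groups were males.

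Integrins are cell surface receptors made of an α and a β chain, and those of leukocytes let blood cells stop on endothelium, crawl, leave the vessel and engulf particles. The β2 chain, encoded by Itgb2, pairs with αL (Itgal, forming LFA-1), αM (Itgam, forming Mac-1 or complement receptor 3), αX (Itgax, known as CD11c) or αD (Itgad), while α4 (Itga4) pairs with β1 or with β7 (Itgb7). Kindlin-3, encoded by Fermt3, binds the β chain inside the cell and is needed for integrins of blood cells to become active. In the artery wall these chains are known mainly from macrophages, dendritic cells, lymphocytes and neutrophils.

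Library depth was 20589724 to 61096293 estimated reads, and mitochondrial transcripts took 40.2 to 61.2% of the TPM, the length-scaled share of transcripts in which values are given. In 2 Kl/Kl libraries the sex transcripts went against the label. In replicate 1 of the Bmp2+/+ Kl/Kl males Xist was at 11.4 TPM and Ddx3y at 0.0138 TPM, and in replicate 2 of the Kl/Kl females Xist was at 0.0281 TPM and Ddx3y at 4.81 TPM. The other 22 libraries matched their labelled sex. The 6 smooth muscle markers checked against the aorta label summed to 73.5 to 625 TPM in these 22. Values below are without these 2 libraries (22 libraries) unless all 24 are named, and calls and directions that change with all 24 as labelled are given. Kl itself was at most 0.0102 TPM in Kl/Kl libraries and at most 0.0175 TPM in controls, too low to check the Klotho labels, and Bmp2 was 0.185 to 1.17 TPM in ∆UCS libraries and 0.167 to 0.872 TPM in Bmp2+/+ libraries. The mitochondrial share was 40.9 to 52.5% in ∆UCS Kl/Kl males and 53.5 to 61.2% in ∆UCS controls, without overlap. It overlapped in the other comparisons, and its part in the results was not tested. Fewer cells of a type and less RNA per cell cannot be told apart in such whole-tissue RNA.

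Itgax, the αX chain of macrophages and dendritic cells, was called higher in Kl/Kl aortas in all 3 Klotho comparisons of 22 libraries, and Itgb2, its β2 partner, in females, by limma on log2(TPM + 1). Itgal, Itgb7 and Fermt3 were called in none. Itgax averaged 5.49 TPM in Kl/Kl males, 7.53 TPM in Kl/Kl females and 3.21 TPM in ∆UCS Kl/Kl males, and at most 0.133 TPM in any group of controls. Among the 22 libraries, every Kl/Kl animal lay above every matched control for 4 of 8 members in Bmp2+/+ males (Itgb2, Itgax, Itgam and Itgad), 6 of 8 in females (these 4, Itgal and Itga4) and 2 of 8 in ∆UCS males (Itgax and Itgad). Over all 32561 genes that share was 5.27% for Bmp2+/+ males, 23.4% for females and 6.08% for ∆UCS males. With all 24 libraries the counts were 0 of 8 for Bmp2+/+ males, 3 of 8 for females (Itgb2, Itgam and Itga4) and 2 of 8 in ∆UCS males. The libraries of ∆UCS males are the same in both, and so is their share of 6.08%. For Bmp2+/+ males and females the share over all genes was not computed with all 24 libraries, so nothing is read from those 2 counts.

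**Figure D1:**
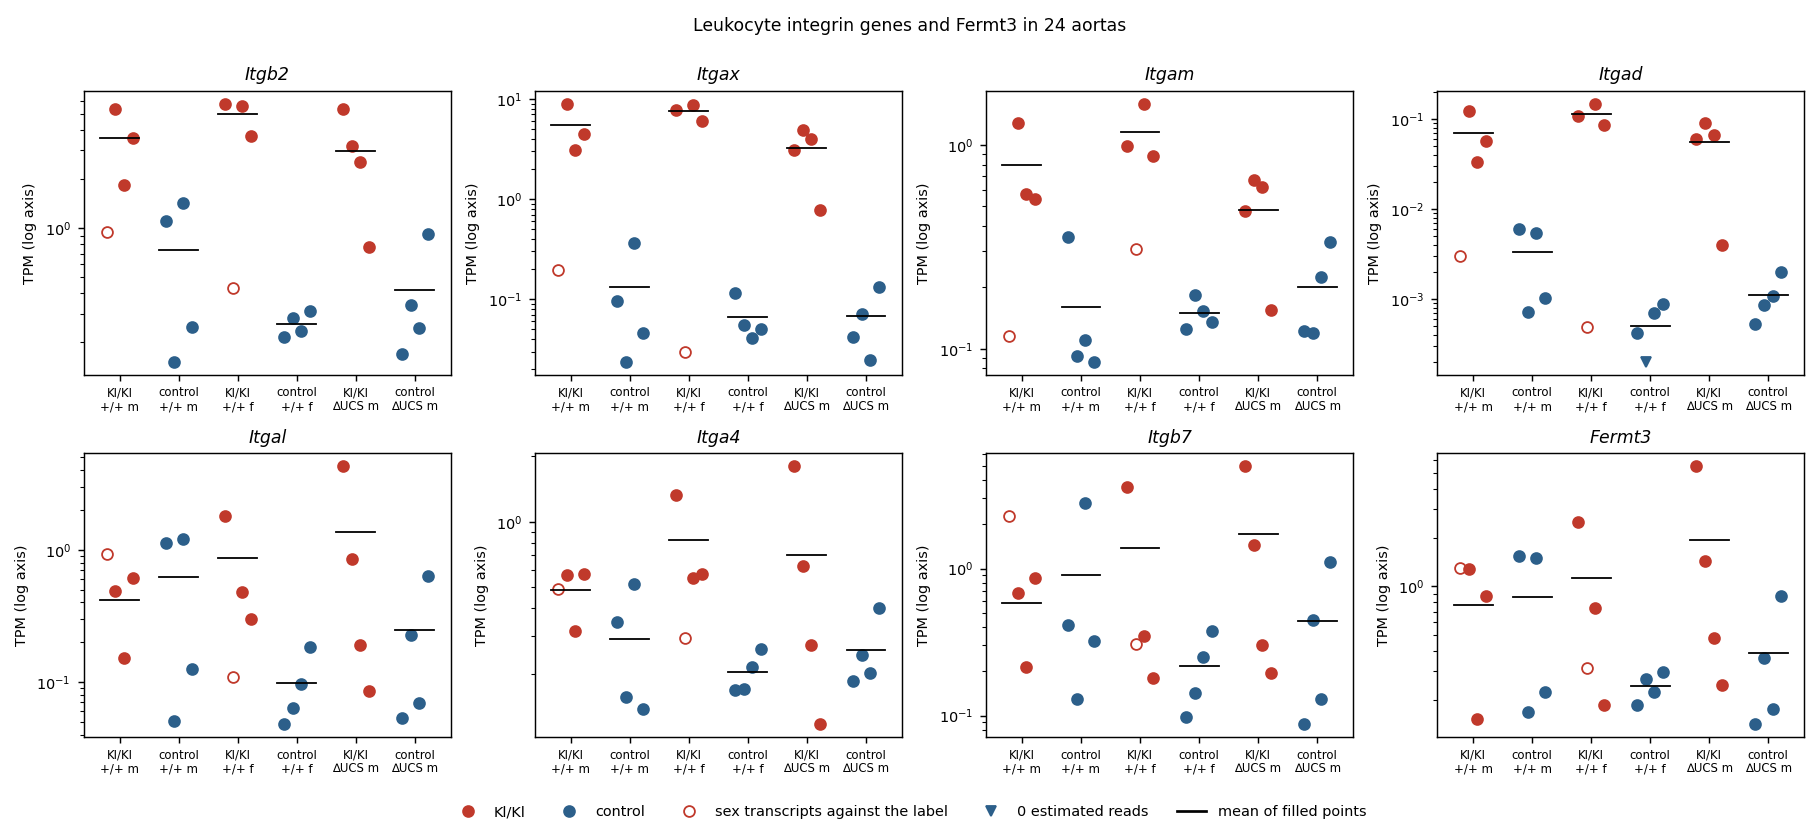
TPM of the 8 members in each library on log axes, by group (m, males; f, females; +/+, Bmp2+/+), with Kl/Kl in red and controls in blue. Open points are the 2 Kl/Kl libraries whose sex transcripts went against the label, black lines are means of the filled points, and the triangle is a library with 0 estimated Itgad reads. Itgax in filled Kl/Kl points spans 0.775 to 8.89 TPM, above all controls, while Itgal, Itgb7 and Fermt3 overlap in males.

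Itgam, Itgax and Itgad, all β2 partners, are neighbours in the mouse genome (mm39, plus strand). On chromosome 7, Itgam (chr7:127661812-127717664), Itgax (chr7:127728719-127749830) and Itgad (chr7:127753548-127822989) follow each other, with Itgal nearby at chr7:126895432-126934311. Itgb2 (chr10:77366086-77401543) and Itga4 (chr2:79085770-79163468) lie on the plus strand of other chromosomes, and Itgb7 (chr15:102124430-102140380) and Fermt3 (chr19:6976326-6996838) on the minus strand. The promoters of Itgam and Itgax are shown because these neighbours, whose α chains share the β2 partner, both lay higher in every Bmp2+/+ Kl/Kl animal of the 22 libraries than in every matched control. The 300-base windows run from 250 bases before to 50 bases after the gene start, are from RefSeq on GRCm38.p6, plus strand, at chr7:128062390-128062689 for Itgam and chr7:128129300-128129599 for Itgax, and have capitals at 2 motifs searched on both strands, GAGGAAG (the core bound by ETS factors such as PU.1) and TGTGGT (the core bound by RUNX factors).
Itgam: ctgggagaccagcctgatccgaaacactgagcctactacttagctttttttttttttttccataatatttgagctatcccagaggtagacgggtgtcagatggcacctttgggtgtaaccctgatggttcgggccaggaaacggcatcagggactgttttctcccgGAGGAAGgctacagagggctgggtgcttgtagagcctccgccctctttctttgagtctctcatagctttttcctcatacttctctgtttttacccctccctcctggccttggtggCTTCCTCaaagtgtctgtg
Itgax: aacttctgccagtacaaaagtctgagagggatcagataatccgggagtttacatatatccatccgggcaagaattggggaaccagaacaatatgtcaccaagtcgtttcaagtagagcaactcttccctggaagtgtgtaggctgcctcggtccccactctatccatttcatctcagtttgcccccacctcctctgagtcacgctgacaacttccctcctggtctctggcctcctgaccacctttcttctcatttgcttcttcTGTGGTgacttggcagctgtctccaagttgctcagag
The Itgam window held GAGGAAG on the plus strand at position -84 from the gene start and on the minus strand at position 31, where it reads CTTCCTC. The Itgax window held TGTGGT on the plus strand at position 13. GAGGAAG was in 13.6% of 32851 promoter windows and in 2 of the 5 members with an entry (Itgam and Itgb7). TGTGGT was in 16.8% of them and in 3 of the 5 (Fermt3, Itga4 and Itgax). Itgb2, Itgal and Itgad were not matched. The motifs do not overlap each other.

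Itgb2, the chain shared by all β2 integrins, was called higher in Kl/Kl females. It was at 5.36, 1.84 and 3.57 TPM in Kl/Kl males and 1.11, 0.152, 1.42 and 0.250 TPM in control males. These groups did not overlap, although the lowest Kl/Kl animal and the highest control were close. In females it was at 5.76, 5.61 and 3.70 TPM in Kl/Kl animals and 0.215, 0.280, 0.234 and 0.310 TPM in controls, a ratio of means of 19.4. In ∆UCS males it was at 5.34, 3.21, 2.54 and 0.770 TPM in Kl/Kl animals and 0.170, 0.339, 0.244 and 0.920 TPM in controls, and the lowest Kl/Kl animal, replicate 4, lay below the highest control. Fitted with limma on log2(TPM + 1) across 9933 genes, the log2 change was 2.24 ± 0.34 (SE) in females, with a Benjamini-Hochberg adjusted p of 0.000461. It was 1.32 ± 0.35 in Bmp2+/+ males (adjusted p 0.0805) and 1.37 ± 0.32 in ∆UCS males (adjusted p 0.0550), neither past the 0.05 threshold. The left-out libraries had 0.952 TPM in the male and 0.432 TPM in the female group, and with all 24 libraries the change in females was 1.73 ± 0.42 (limma adjusted p 0.150).

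Itgax encodes αX of CD11c/CD18, a chain of tissue macrophages and dendritic cells, and its change was called in all 3 Klotho comparisons. Kl/Kl males had 8.89, 3.07 and 4.51 TPM and control males 0.0953, 0.0237, 0.368 and 0.0460 TPM. The highest control was far below the lowest Kl/Kl male. Kl/Kl females had 7.79, 8.77 and 6.04 TPM and control females 0.117, 0.0556, 0.0411 and 0.0507 TPM, far apart again. ∆UCS Kl/Kl males had 3.12, 4.93, 4.02 and 0.775 TPM and ∆UCS controls 0.0418, 0.0715, 0.0250 and 0.132 TPM, with replicate 4 again the lowest Kl/Kl animal. The ratio of means was 41.2 for Bmp2+/+ males, 114 for females and 47.6 for ∆UCS males. On the log2(TPM + 1) scale, which understates changes of low values, the limma change was 2.39 ± 0.32 (adjusted p 0.000195), 2.99 ± 0.31 (adjusted p 6.49e-06) and 1.85 ± 0.29 (adjusted p 0.00228) in that order. The 2 left-out libraries were at control levels, 0.197 TPM in the male and 0.0300 TPM in the female. With all 24 libraries the Itgax change was 1.84, 2.23 and 1.85 with an SE of 0.56 each, and no comparison passed (limma adjusted p 0.589, 0.150 and 0.151). The ∆UCS libraries and their change of 1.85 were the same in both fits. Its SE went from 0.29 to 0.56 because all groups share 1 estimate of the spread. Among the 22, the ∆UCS call was lost in a fit of the compared groups alone (limma adjusted p 0.0501), and in library set 1 alone, 1 of 2 sets read from the spelling of library names, both the ∆UCS and the Bmp2+/+ male calls were lost (limma adjusted p 0.0540 and 0.222).

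Itgam encodes αM of Mac-1, the complement receptor of neutrophils, monocytes and macrophages, and did not reach the filter of 1 TPM in at least 4 libraries. It was at 1.28, 0.573 and 0.546 TPM in Kl/Kl males and 0.355, 0.0920, 0.110 and 0.0862 TPM in control males. It was at 0.990, 1.59 and 0.883 TPM in Kl/Kl females and 0.125, 0.184, 0.154 and 0.135 TPM in control females. Neither pair of groups overlapped, and both gave p = 0.0286 by a two-sided exact permutation test of the mean TPM, the smallest p that 3 against 4 animals allow. In ∆UCS males the groups overlapped, with 0.475, 0.670, 0.620 and 0.155 TPM in Kl/Kl animals and 0.121, 0.119, 0.224 and 0.335 TPM in controls (exact permutation p = 0.0857). The left-out libraries had 0.115 TPM in the male and 0.309 TPM in the female. With all 24 libraries the male comparison gave p = 0.0571 and the female comparison p = 0.0286 by the same exact test. These p-values are not adjusted for the 15 such tests of 3 members in 5 comparisons, of which 6 reached 0.0286 among the 22 libraries and 3 among all 24.

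Itgad encodes αD, the β2 partner known from macrophages of spleen and of inflamed tissue, and was present at few reads. Its level was at 0.121, 0.0331 and 0.0569 TPM in Kl/Kl males and 0.00600, 0.000722, 0.00542 and 0.00103 TPM in control males. In females it was at 0.107, 0.146 and 0.0858 TPM in Kl/Kl animals and at most 0.000889 TPM in controls, one of which had 0 estimated reads. ∆UCS Kl/Kl males had 0.0600, 0.0906, 0.0659 and 0.00394 TPM and ∆UCS controls 0.000533, 0.000862, 0.00109 and 0.00198 TPM. All 3 Klotho comparisons were without overlap and gave p = 0.0286 in the exact permutation test, and with all 24 libraries the male and female comparisons gave p = 0.0857 each. Reads numbered 13 to 380 per Kl/Kl library among the 22, and 0 to 13 per control. Estimated Itgad reads seldom fell on whole numbers (2 of 14 member values under 20 reads were within 0.05 of one, against 73.0% over all genes). How reads matching several genes were shared is not given in the sources used here, so the level of Itgad is uncertain. The controls lowest in Itgax, at 20 to 22 reads, were just outside that range and 0.108 to 0.147 off a whole number. No share over all genes was computed there, so the low Itgax levels of controls are uncertain too.

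Itgal encodes αL of LFA-1, which is carried by lymphocytes and most other leukocytes, and was not called in any comparison. It was at 0.484, 0.151 and 0.607 TPM in Kl/Kl males and 1.12, 0.0511, 1.20 and 0.126 TPM in control males, where 2 controls exceeded every Kl/Kl animal. Kl/Kl females had 1.80, 0.483 and 0.299 TPM, above the 0.0480, 0.0633, 0.0964 and 0.185 TPM of control females. ∆UCS Kl/Kl males had 4.29, 0.853, 0.191 and 0.0862 TPM and ∆UCS controls 0.0537, 0.227, 0.0688 and 0.638 TPM, a broad overlap in which replicate 1 of the Kl/Kl animals was highest. The limma log2 change was -0.21 ± 0.41, 0.68 ± 0.41 and 0.62 ± 0.38 in Bmp2+/+ males, females and ∆UCS males, with adjusted p of 0.906, 0.298 and 0.385. Over all 24 libraries it was -0.01 ± 0.38, 0.51 ± 0.38 and 0.62 ± 0.38 (limma adjusted p at least 0.384).

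The α4 and β7 chains, which guide lymphocytes to VCAM-1 and to gut vessels, and kindlin-3 spread widely within groups. Itga4 was at 0.572, 0.314 and 0.573 TPM in Kl/Kl males and 0.346, 0.157, 0.519 and 0.138 TPM in control males (exact permutation p = 0.143). In females Itga4 was at 1.33, 0.553 and 0.578 TPM in Kl/Kl animals and 0.170, 0.171, 0.215 and 0.260 TPM in controls, without overlap and with p = 0.0286 by the exact permutation test, also with all 24 libraries. In ∆UCS males it ranged over 0.118 to 1.80 TPM in Kl/Kl animals and 0.185 to 0.401 TPM in controls (exact permutation p = 0.314). Itgb7 ranged over 0.215 to 0.860 TPM in Kl/Kl males and 0.129 to 2.78 TPM in control males. One Kl/Kl animal set the female and the ∆UCS mean of Itgb7, replicate 1 in each, at 3.59 TPM against 0.181 and 0.348 TPM in the other Kl/Kl females and 4.96 TPM against 0.194 to 1.45 TPM in the other ∆UCS Kl/Kl males. Control females had 0.0976 to 0.375 TPM of Itgb7 and ∆UCS controls 0.0876 to 1.11 TPM. Fermt3 was highest in the same 2 Kl/Kl animals, at 2.48 TPM in the female and 5.51 TPM in the ∆UCS male, and in control males 1 and 3 at 1.55 and 1.49 TPM, against 0.142 to 0.870 TPM in the other controls. The limma changes of Itgb7 (-0.17 ± 0.53, 0.68 ± 0.52 and 0.65 ± 0.48) and of Fermt3 (-0.12 ± 0.46, 0.63 ± 0.45 and 0.78 ± 0.42), in Bmp2+/+ males, females and ∆UCS males, had adjusted p of at least 0.342. Over all 24 libraries the change in Bmp2+/+ males turned to 0.16 ± 0.49 for Itgb7 and 0.08 ± 0.42 for Fermt3 (limma adjusted p 0.983 and 0.990).

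Of the 5 members past the filter, limma called 1 in Bmp2+/+ males (Itgax), where 1.10% of 9933 genes were called either way and 1.04% higher. It called 2 in females (Itgb2 and Itgax), where 2.60% were called either way and 2.58% higher, and 1 in ∆UCS males (Itgax), where 0.644% were called either way and 0.534% higher. Itgax, at most 0.368 TPM in any control, passed the filter only through Kl/Kl libraries. Itgb2, Itgal, Itgb7 and Fermt3 passed only with Kl/Kl libraries counted. The place of all 5 in the fit thus depends on their level in Kl/Kl animals, and the member counts beside these shares are no test. Leaving out 1 animal moved the genes called by over 1.5 times in all 3 comparisons. For Bmp2+/+ males there were 36 without Kl/Kl 4, 70 without control 2 and 410 without Kl/Kl 3. For females there were 134 without Kl/Kl 1, 143 without Kl/Kl 3, 148 without control 3, 161 without control 2 and 535 without control 1. For ∆UCS males there were 38 without Kl/Kl 3, 41 without Kl/Kl 2, 40 without control 1 or control 3 and 159 without Kl/Kl 4. The members called were all higher in Kl/Kl animals, as were 103, 256 and 53 of the 109, 258 and 64 genes called in all. With all 24 libraries no member and none of the 9933 genes was called in these 3 comparisons (0% each), while 2 of 5 members had unadjusted p under 0.05 in each, beside 603, 1498 and 1628 genes. The median log2 change of all genes was 0.09, 0.29 and 0.26 in these comparisons, and -0.02, -0.02 and 0.03 after median-of-ratios scaling. That scaling gave 150 higher and 25 lower genes in Bmp2+/+ males, 223 and 153 in females and 71 and 58 in ∆UCS males, and it called both Itgb2 and Itgax in every Klotho comparison.

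All 8 members could be fitted on reads estimated from the TPM, with limma voom across 22374 genes and median-of-ratios scaling. Members called were 4 in Bmp2+/+ males (Itgb2, Itgam, Itgax and Itgad), the same 4 in females and 3 in ∆UCS males (Itgb2, Itgax and Itgad), all higher in Kl/Kl animals. Over all genes 1.51%, 3.25% and 1.20% were called either way and 1.38%, 2.06% and 0.706% higher in Kl/Kl. Itgad passed the read filter only with Kl/Kl libraries counted. For Itgax the voom log2 change was 5.59 ± 0.55 for Bmp2+/+ males, 6.36 ± 0.56 for females and 5.15 ± 0.54 for ∆UCS males. Itgb2 changed by 2.31 ± 0.45, 3.70 ± 0.47 and 2.43 ± 0.42 in the same order (voom adjusted p 0.00983, 8.18e-05 and 0.00572). Itgam changed by 2.16 ± 0.33 in Bmp2+/+ males and 2.38 ± 0.34 in females (voom adjusted p 0.000898 and 0.000288), and its value in ∆UCS males was 0.84 ± 0.30 (adjusted p 0.171). Itgad changed by 4.18 ± 0.70, 7.0 ± 0.84 and 4.69 ± 0.79 (voom adjusted p 0.00203, 4.62e-05 and 0.00425), values that rest on at most 13 reads per control and depend on the constant added before taking logs. Itgal, Itga4, Itgb7 and Fermt3 were called in none, with voom adjusted p of at least 0.139. Without replicate 4 of the Kl/Kl males the male count was 2 (Itgax and Itgam), a fit for which no share over all genes was computed. With all 24 libraries the count was 0 of 8 in each Klotho comparison (0% of 22374 genes). There 4, 5 and 3 members had unadjusted p under 0.05 in voom, beside 1782, 2594 and 3494 of the 22374 genes.

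**Figure D2:**
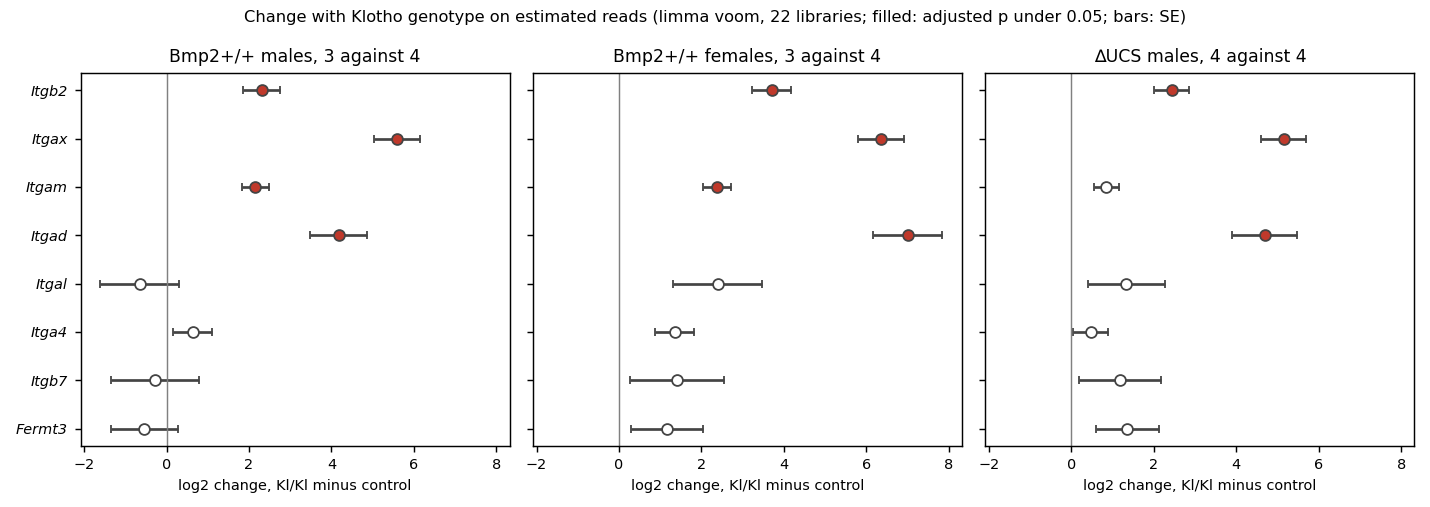
Log2 change of the 8 members, Kl/Kl minus control, in a limma voom fit of 22 libraries on estimated reads, in Bmp2+/+ males, Bmp2+/+ females and ∆UCS males. Points are estimates, bars are SE, and filled points have an adjusted p under 0.05. Itgax lies between 5.15 and 6.36, and Itgal, Itga4, Itgb7 and Fermt3 are open in all 3 panels.

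No member was called between ∆UCS and Bmp2+/+ animals of the same Klotho genotype. Neither was any of the 9933 genes in limma (0%), of which 180 among Kl/Kl males and 216 among control males had unadjusted p under 0.05. Voom called none of 22374 either, with 670 and 1380 at unadjusted p under 0.05. All ∆UCS libraries came from library set 1, while Bmp2+/+ males had libraries in both sets. The adjustment for library set in these contrasts thus rests on the Bmp2+/+ males alone. Among Kl/Kl males, the limma log2 change, ∆UCS minus Bmp2+/+, was -0.73 ± 0.33 for Itgax (unadjusted p 0.0401, adjusted p 1.00) and -0.44 ± 0.36 for Itgb2 (adjusted p 1.00). Itgam averaged 0.480 TPM in ∆UCS Kl/Kl males and 0.798 TPM in Bmp2+/+ Kl/Kl males (exact permutation p = 0.343), and Itgad 0.0551 and 0.0704 TPM (exact permutation p = 0.714). In this contrast 1 of 5 members had an unadjusted limma p under 0.05, and 2 of 8 in the voom fit, which called none. Among control males the limma changes of the 5 members lay between -0.63 and -0.19, all with adjusted p of 0.959, and the exact p of Itgam, Itgad and Itga4 was at least 0.286. There, 0 of 5 members had an unadjusted limma p under 0.05, and 1 of 8 in voom. When all 24 libraries were used, the change among Kl/Kl males was -0.46 ± 0.63 for Itgax and -0.34 ± 0.47 for Itgb2, and no member was called or had an unadjusted p under 0.05 in either contrast, by limma or voom. In mean TPM, Itgb2 and Itgad turned slightly higher in ∆UCS Kl/Kl males.

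The response to Klotho genotype was also compared between strata, as a difference of differences. For Itgax the response in ∆UCS males minus that in Bmp2+/+ males was -0.54 ± 0.43, and the response in females minus that in males was 0.60 ± 0.45. For Itgb2 the same differences were 0.05 ± 0.47 and 0.92 ± 0.49. Limma called no member and no gene in either contrast (0% of 9933 genes, 0 of 5 members at unadjusted p under 0.05, members' adjusted p at least 0.956), with 205 genes at unadjusted p under 0.05 for Bmp2 genotype and 142 for sex. Voom called none either, with 1908 and 633 genes at unadjusted p under 0.05, and with 1 of 8 members at unadjusted p under 0.05 for Bmp2 genotype and 3 of 8 for sex. All ∆UCS libraries came from 1 of 2 library sets and all females from the other, as read from the spelling of library names, so these contrasts lean on the Bmp2+/+ males, which have libraries in both.

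Ordered by mean TPM in the 22 libraries, Itgb2, Itgam, Itgax and Itgad shared the order of the Kl/Kl groups, with females highest, then Bmp2+/+ males, then ∆UCS males, and all controls lower. When all 24 libraries were averaged, Itgb2 was at 2.97 TPM in ∆UCS Kl/Kl males and 2.93 TPM in Bmp2+/+ Kl/Kl males, and Itgad at 0.0551 and 0.0536 TPM, so that this order turned for both. The ranges of neighbouring groups overlapped at every step for Itgb2, Itgam and Itgad. For Itgax they overlapped at every step except between ∆UCS Kl/Kl males (0.775 TPM and above) and control males (0.368 TPM and below). Itgal, Itgb7 and Fermt3 had another order, with ∆UCS Kl/Kl males highest, Kl/Kl females next and then control males, above Kl/Kl males. Every neighbouring pair of groups overlapped for these 3 and for Itga4. When all 24 were averaged, Kl/Kl males were above control males for Itgb7 (1.01 and 0.910 TPM) and Fermt3 (0.897 and 0.856 TPM).

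Within a library, the ratio of Itgax to Itgb2 lay higher in Kl/Kl animals than in controls among the 22 libraries, but not in the 2 left-out libraries. Such a ratio does not depend on library scaling, and it was examined after the values were seen, so it is given without a test. Relative to the median of the 12 controls, the log2 ratio of Itgax to Itgb2 was 2.81 to 3.22 in Kl/Kl males, 2.91 to 3.18 in Kl/Kl females and 1.70 to 3.13 in ∆UCS Kl/Kl males. Controls lay between -1.06 and 1.59, below all of these. The ratio of Itga4 to Itgb2 ran the other way, at -2.82 to -2.14, -2.94 to -1.71 and -2.83 to -1.16 in those Kl/Kl groups, and from -1.27 to 0.53 in controls. Fermt3 against Itgb2 was -3.54 to -1.97 in Kl/Kl males and -4.25 to -1.15 in Kl/Kl females, below the -0.40 to 0.55 of all controls, and -2.34 to 0.11 in ∆UCS Kl/Kl males. Itgam against Itgb2 was -1.72 to -0.69 in Kl/Kl males and -2.70 to 0.27 in control males, and so overlapped there. It was -1.55 to -0.83 in Kl/Kl females and -0.21 to 0.39 in control females, and -2.50 to -1.05 in ∆UCS Kl/Kl males and -0.52 to 0.87 in ∆UCS controls, without overlap. In the left-out male and female the ratio was 0.21 and -1.38 for Itgax, -0.54 and -0.17 for Itga4, 0.51 and -0.40 for Fermt3 and -2.06 and 0.50 for Itgam.

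**Figure D3:**
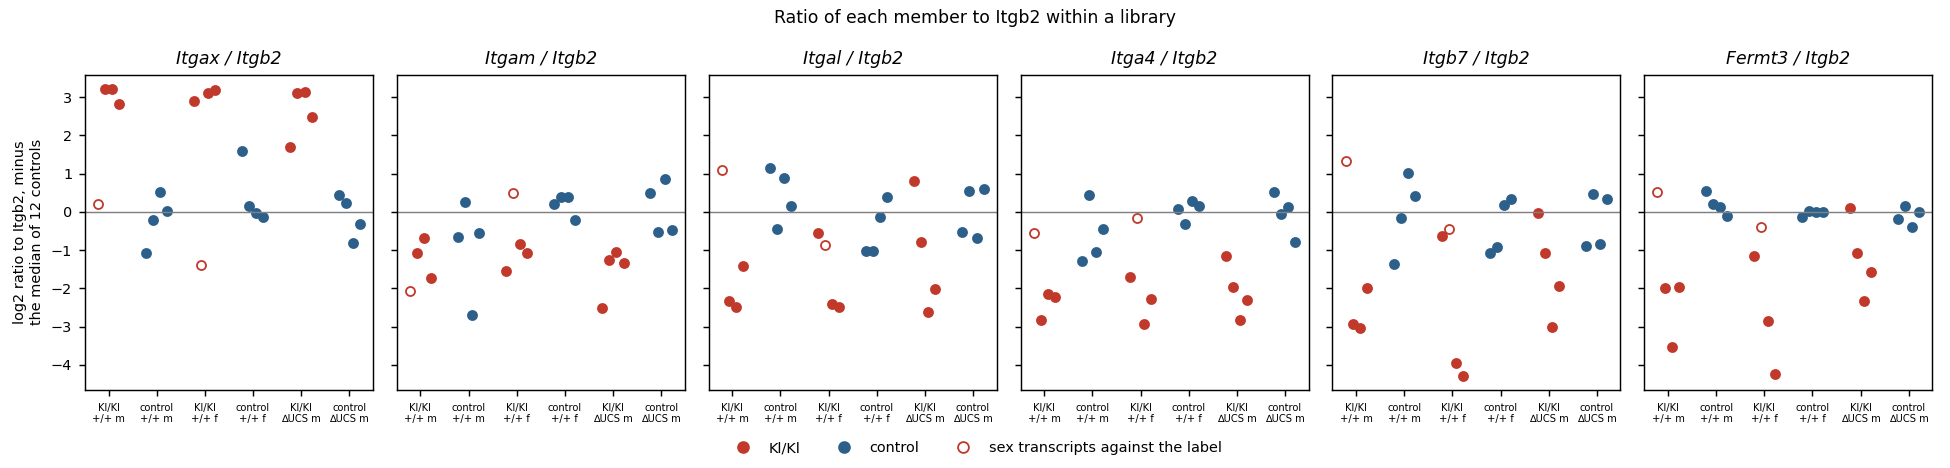
Log2 ratio of 6 members to Itgb2 within each library, set to 0 at the median of the 12 controls (Itgad is left out, since 1 control had 0 reads). Red, Kl/Kl; blue, controls; open, the 2 libraries whose sex transcripts went against the label. Filled Kl/Kl points for Itgax lie at 1.70 or more, above the highest control at 1.59, and those for Itga4 lie at -1.16 or less.

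Summed macrophage markers lay higher in every Kl/Kl animal than in every control among the 22 libraries. The summed TPM of 12 macrophage markers was 121 to 216 in Kl/Kl males and 9.64 to 32.0 in control males, 176 to 245 in Kl/Kl females and 10.6 to 16.8 in control females, and 42.5 to 123 in ∆UCS Kl/Kl males and 11.3 to 24.5 in ∆UCS controls. The lowest ∆UCS Kl/Kl sum was that of replicate 4, which also had the least of all 8 members in its group. The left-out libraries had sums of 21.2 TPM in the male and 14.1 TPM in the female. Singly, 9, 11 and 6 of the 12 lay higher in every Kl/Kl animal in Bmp2+/+ males, females and ∆UCS males. Over all 32561 genes that share was 5.27%, 23.4% and 6.08%. TPM here was scaled by genomic span and is not comparable between genes, so a sum can rest on few markers. No macrophage marker was at 0 throughout a group. Of 7 macrophage markers past the filter, limma called 5 for females and 4 each for Bmp2+/+ and ∆UCS males, all higher, voom called 10 of 12 for females, 9 for Bmp2+/+ males and 4 for ∆UCS males, and the median log2 change in limma was 2.13 for females, 2.08 for Bmp2+/+ males and 1.47 for ∆UCS males. For Bmp2+/+ males, females and ∆UCS males in this order, the scavenger receptor Cd68 changed by 3.36 ± 0.38, 3.97 ± 0.38 and 2.89 ± 0.35, and the lipid receptor Trem2 by 2.08 ± 0.26, 2.13 ± 0.26 and 1.47 ± 0.24. Neutrophil markers, 8 in all, summed to 5.41 to 51.1 TPM in Kl/Kl males and 1.06 to 9.19 TPM in control males, to 4.12 to 22.5 TPM in Kl/Kl females and 0.847 to 16.5 TPM in control females, and to 4.65 to 29.7 TPM in ∆UCS Kl/Kl males and 0.462 to 4.27 TPM in ∆UCS controls. The sums did not overlap in ∆UCS males. Singly, 2, 4 and 2 of the 8 lay higher in every Kl/Kl animal in Bmp2+/+ males, females and ∆UCS males. In limma none of the 3 neutrophil markers tested was called in a Klotho comparison (lowest limma adjusted p 0.0984, for S100a8 in females). Voom tested 7 of them and called Mmp8, the neutrophil collagenase, in Bmp2+/+ males at 3.27 ± 0.75 and in females at 3.94 ± 0.80 (adjusted p 0.0300 and 0.00903), and the receptor gene Csf3r in females at 2.29 ± 0.58 (adjusted p 0.0351), all higher in Kl/Kl. Of 7 platelet markers, which matter here because kindlin-3 also serves platelets, Pf4 was the one tested, at 1.77 ± 0.36 in females (limma adjusted p 0.00811), a call that was lost in voom (1.34 ± 0.51, adjusted p 0.166). Summed, these 7 were at 13.2 to 28.9 TPM in Kl/Kl males and 4.26 to 12.5 TPM in control males. They were at 17.8 to 35.0 TPM in Kl/Kl females and 4.45 to 9.74 TPM in control females. ∆UCS Kl/Kl males had 12.1 to 29.3 TPM and ∆UCS controls 6.22 to 10.7 TPM. None of these 3 pairs overlapped, though singly 1, 4 and 1 of the 7 lay higher in every Kl/Kl animal. The left-out male and female had 6.85 and 9.10 TPM. Adipocyte markers, 6 in all, summed to 215 to 280 TPM in Kl/Kl males and 389 to 638 TPM in control males, to 191 to 241 TPM in Kl/Kl females and 237 to 552 TPM in control females, and to 128 to 581 TPM in ∆UCS Kl/Kl males and 432 to 555 TPM in ∆UCS controls. Fibroblast markers, also 6, summed to 107 to 141 TPM in Kl/Kl females and 42.4 to 71.7 TPM in control females, without overlap, while their sums overlapped in both male comparisons. Sums of 8 dendritic cell markers overlapped in all 3 Klotho comparisons, as at 1.40 to 4.91 TPM in Kl/Kl males and 0.681 to 8.09 TPM in control males. For 7 pan-leukocyte markers the sums were 12.8 to 53.7 TPM in Kl/Kl females and 2.63 to 5.94 TPM in control females, without overlap. In both male comparisons the pan-leukocyte sums overlapped. The part of cell composition in the integrin changes was not tested.

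Itgal and Itgb7 were high in libraries rich in T, NK or B cell markers. The 12 T and NK cell markers summed to 204 TPM in ∆UCS Kl/Kl replicate 1, 43.4 TPM in Kl/Kl female 1, 72.9 TPM in control male 1 and 45.5 TPM in control male 3, and to at most 17.9 TPM in the remaining libraries of the 22. Itgal exceeded 1 TPM in just these 4 libraries. The 8 B cell markers summed to 62.8 TPM in control male 3, 62.3 TPM in Kl/Kl female 1 and 54.6 TPM in ∆UCS Kl/Kl replicate 1, but to 1.81 TPM in control male 1. Itgb7 was at 2.78, 3.59 and 4.96 TPM in the first 3 of these and 0.411 TPM in control male 1. The left-out male had 31.9 TPM of T and NK and 34.5 TPM of B cell markers, with 0.932 TPM of Itgal and 2.28 TPM of Itgb7. None of 9 T and NK markers (lowest limma adjusted p 0.425, for Cd2 in ∆UCS males) and none of 6 B cell markers (lowest limma adjusted p 0.356, for Ms4a1 in females) was called in a Klotho comparison of the 22 libraries. The part of these cells in the member values was not tested.

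**Figure D4:**
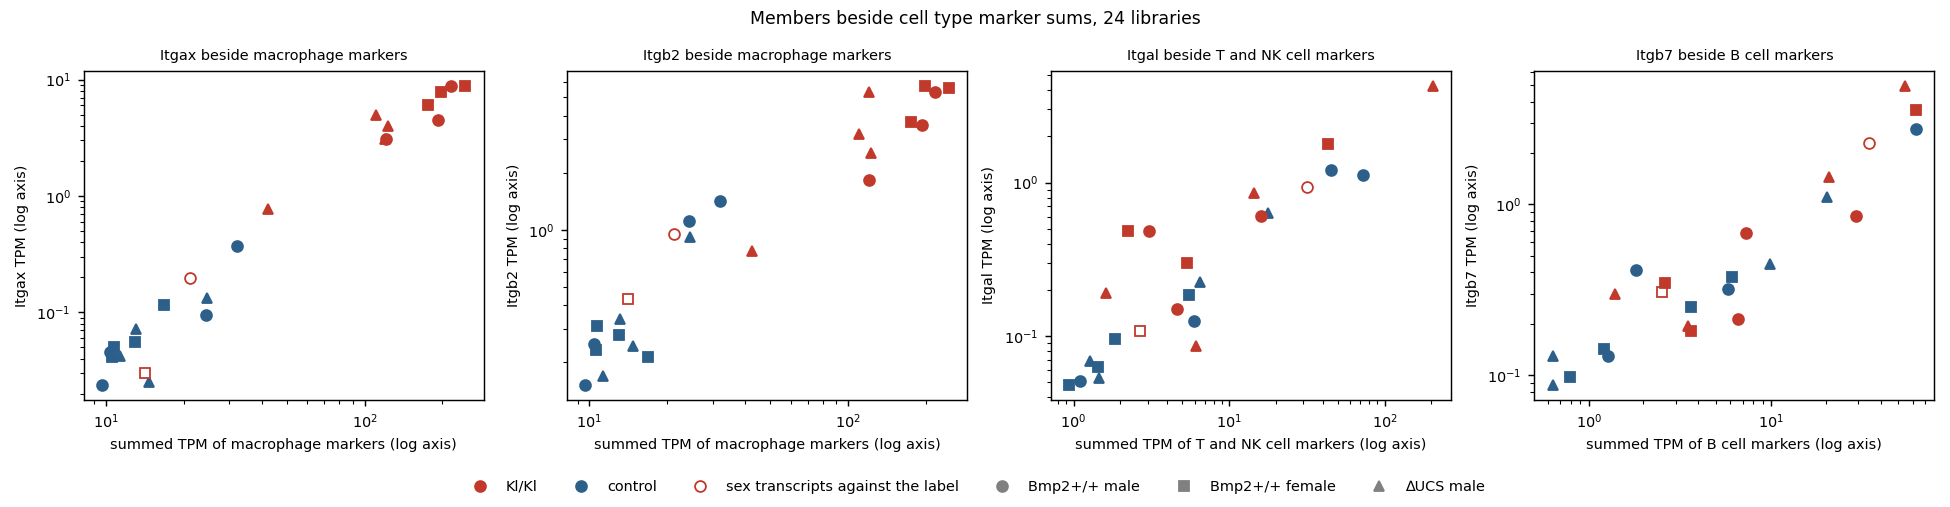
TPM of Itgax and Itgb2 against the summed TPM of 12 macrophage markers, of Itgal against 12 T and NK cell markers and of Itgb7 against 8 B cell markers, 1 point per library, all axes log. Colour gives the Klotho genotype, shape the sex and Bmp2 genotype, and open points are the 2 libraries whose sex transcripts went against the label. Filled Kl/Kl points lie at macrophage sums of 42.5 TPM and above and controls at 32.0 TPM and below, while the T and NK and the B cell sums mix both genotypes.

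Among 13 ligands of these receptors, 9 passed the filter. Spp1, which encodes osteopontin, a matrix protein bound by α4 and other integrins, rose by 6.71 ± 0.48 in Kl/Kl males, 6.78 ± 0.48 in Kl/Kl females and 5.81 ± 0.44 in ∆UCS Kl/Kl males (limma adjusted p 1.62e-07, 1.06e-07 and 7.92e-07). Vcam1, the endothelial counter-receptor of α4 integrins, rose in females by 1.85 ± 0.42 (limma adjusted p 0.0176). Limma called no other ligand, and voom called also Fn1, which encodes fibronectin, in Bmp2+/+ males at 1.61 ± 0.35 (adjusted p 0.0190). In limma the list medians were 0.26, 0.43 and 0.48 against 0.09, 0.29 and 0.26 over all genes. Of 6 activators and adaptors tested, which link integrins to talin and the small GTPase RAP1, limma called 1 and voom none of 12. Rap1b was at 1.02 ± 0.24 in females (limma adjusted p 0.0226, voom adjusted p 0.0699), with 0.65 ± 0.24 in Bmp2+/+ males and 0.61 ± 0.22 in ∆UCS males, and the medians of this list were 0.16, 0.38 and 0.20.

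Downstream of the receptors, 7 of 18 signalling and cytoskeletal genes passed the filter. The adaptors Tyrobp (DAP12) and Fcer1g (the Fc receptor γ chain), which carry activation motifs used by β2 integrins and by many other myeloid receptors, rose in every Klotho comparison. Tyrobp changed by 1.97 ± 0.31, 2.80 ± 0.31 and 1.91 ± 0.28 in Bmp2+/+ males, females and ∆UCS males, and Fcer1g by 1.95 ± 0.23, 2.53 ± 0.23 and 1.60 ± 0.21 (limma adjusted p at most 0.00133). In females the actin bundler Lcp1 rose by 1.43 ± 0.32 and the ARF exchange factor Cyth4 by 1.20 ± 0.31 (limma adjusted p 0.0175 and 0.0441). List medians were 0.51, 1.55 and 1.21, with 2, 4 and 2 of 7 called, and voom called 2, 7 and 2 of 18. Of 19 integrin chains of other cells 6 passed the filter and none was called (lowest limma adjusted p 0.144, for Itgb1 in females), with medians of 0.37, 0.13 and 0.03, and Itgb1, the β1 partner of α4, was at 0.91 ± 0.28 in Bmp2+/+ males (limma adjusted p 0.174). On estimated reads all 19 were tested and 2 were called, both higher in females, Itga2 at 1.58 ± 0.35 and Itgb3 at 1.15 ± 0.26 (voom adjusted p 0.0163 and 0.0196). Selplg, a selectin ligand of leukocytes, was at 1.07 ± 0.55 in females (limma adjusted p 0.233) and was called in no Klotho comparison by limma or voom. Between ∆UCS and Bmp2+/+ males neither fit called a gene of these lists, and with all 24 libraries limma called none in any comparison.

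The 5 tested genes whose pattern over the 22 libraries was closest to that of Itgb2, by the root mean square difference of centred log2(TPM + 1), were Gm9025 (0.19), Capg (0.26), Pirb (0.26), Cxcl16 (0.26) and Ncf1 (0.28). Capg encodes an actin-capping protein of macrophages, Pirb an inhibitory receptor, Cxcl16 a transmembrane chemokine and Ncf1 a subunit of the phagocyte NADPH oxidase. These genes were picked for a pattern that follows Itgb2 over the same libraries, so their changes are a description with no test, at 1.75 to 2.58 (Capg and Ncf1) in females, 1.00 to 1.91 (Cxcl16 and Ncf1) in Bmp2+/+ males and 1.04 to 1.63 (Pirb and Ncf1) in ∆UCS males.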

How the data were processed

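PolyA RNA of 24 flash-frozen aortas was sequenced from directional libraries, per the labels' protocols. The authors deposited 1 table of TPM. Partek and the build mm39 are named in the submitters' processing notes. Aligner, annotation release and the handling of strand and of multiply mapped reads are not stated in the available sources, so levels of genes with near-identical copies or antisense partners are uncertain. Each deposited TPM column sums to 482073, and a constant equal to 0.0001 reads had been added before scaling, as the lowest values of each gene show. From those lowest values and the gene spans, reads were estimated (77.2% of low values, from 0.5 to 20 reads, were within 0.05 of a whole number in genes with a usable lowest value, 73.0% over all genes). TPM here was scaled by genomic span, and levels are therefore compared between samples and not between genes.

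The main test was limma 3.58.1 (R 4.3.3, trended prior) on log2(TPM + 1) over 9933 genes of at least 1 TPM in at least 4 libraries, in 1 fit of 22 libraries with 6 group means and the library set, and with Benjamini-Hochberg adjustment at 0.05. The 2 library sets were inferred from the spelling of library names. Members under the filter (Itgam, Itgad and Itga4) were compared by a two-sided exact permutation test of mean TPM, and all 8 by limma voom on estimated reads (at least 10 reads in at least 4 libraries) as an alternative. Alternatives were other libraries, scalings, filters, pseudocounts and covariates, and leaving out each animal. Scripts were tested on simulated data. Ratios, overlap counts and leave-one-out fits on estimated reads were added after the values were seen. The members, gene lists and motifs were chosen with earlier results of these data known. Genes named are all members, up to 4 tested genes per list and comparison with the largest change among those called (or among all where none was called), the 5 genes closest to Itgb2, and Pf4, S100a8, Cd2, Ms4a1, Mmp8, Csf3r, Itga2, Itgb3 and Fn1, which were chosen after their values were seen. The limma p-values set each change against the spread between animals, pooled over the groups of the fit and moderated across genes. The exact permutation p-values rest on relabelling the animals compared. Counting error adds to the spread where reads are few. No 2 libraries held identical values (0 pairs).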

Additional observations from a re-analysis of the deposited data

Results flagged for a closer look

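In 3 of the 48 groups of 4 animals tested (8 members in 6 groups, all 24 libraries), 1 library lay far from the other 3 by Dixon's criterion at the 95% level. The criterion sets the gap to the nearest library against the range of the group. It was taken on log2(TPM + 1), so the gaps below are on that scale and not on the TPM printed beside them. Chance flags about 1 in 20 groups. Itgax in replicate 2 of the Kl/Kl females, one of the libraries whose sex transcripts went against the label, was at 0.0300 TPM against 6.04 to 8.77 TPM in the other Kl/Kl females (gap 0.854 of the range). Itgb7 in replicate 1 of the Kl/Kl females was at 3.59 TPM against 0.181 to 0.348 TPM (gap 0.903), in the library with the highest T and NK cell and B cell marker sums of that group. Itgam in replicate 1 of the Bmp2+/+ control males, the animal labelled Klotho+/+, was at 0.355 TPM against 0.0862 to 0.110 TPM (gap 0.902).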

How the results depend on the processing

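With all 24 libraries as labelled, members called were 0 in each Klotho comparison, on TPM, with median-of-ratios scaling and on estimated reads, where 4, 4 and 3 were called among the 22 libraries. Among the 22, median-of-ratios scaling called 2 of 5 in Bmp2+/+ males and 2 of 5 in ∆UCS males, beside 175 and 129 of 9933 genes. In ∆UCS males the count was also 2 of 5 with a pseudocount of 0.1 (93 of 9933 genes called) and without the library set (99 genes called). With a filter of 5 TPM it was 2 of the 2 members left, beside 320 of 3704 genes. It was 0 in a fit of the compared groups alone (Itgax limma adjusted p 0.0501, 46 genes called) or of library set 1 alone (Itgax limma adjusted p 0.0540, 32 genes called). Without a filter 4 of 8 were called in females, beside 988 of 32561 genes. In Bmp2+/+ males library set 1 alone, with 2 animals a group, called 0, beside 13 of 9933 genes, Itgax being at 2.37 (limma adjusted p 0.222). Of the 15 exact tests of members below the filter 3 reached p = 0.0286 with all 24 libraries. Among the 22, limma without the filter called 2 of these (Itgam and Itgad in females).

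Leaving out 1 animal at a time, members called ranged from 1 to 2 in Bmp2+/+ males (7 fits), were 2 throughout in females and ranged from 1 to 2 in ∆UCS males. On estimated reads they ranged from 2 to 4, 4 to 4 and 3 to 3, and no share over all genes was computed for those fits on reads. On TPM the second call in males was Itgb2, without Kl/Kl male 3 (1.71, adjusted p 0.00675), ∆UCS control 4 (1.53, adjusted p 0.0461) or ∆UCS Kl/Kl 4 (1.71, adjusted p 0.00270). Itgax in Bmp2+/+ males ranged from 2.07 to 2.71 and remained called.

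The following changes turned direction and were uncalled in all fits, and the cause was not tested. In Bmp2+/+ males, Itgal was 0.11 on reads with all 24 libraries, and -0.72 to 0.011 leaving out 1 animal. Itgb7 was 0.16, 0.094 and 0.53 with all 24 libraries (TPM, median-of-ratios scaling and reads) and -0.69 to 0.31 leaving out 1 animal. Fermt3 was 0.078, 0.017 and 0.051 in the same fits, 0.058 with a replicate block and -0.64 to 0.25 leaving out 1 animal. For ∆UCS minus Bmp2+/+ in control males Itgb7 ranged from -0.77 to 0.18 leaving out 1 animal. In Kl/Kl males Itgal was -0.19 on reads with all 24 libraries and -0.22 to 0.54 leaving out 1 animal, Itgb7 -0.13 to 0.64 and Fermt3 -0.23 to 0.57. The ∆UCS minus Bmp2+/+ difference in Klotho response of Itgb2 was -0.037 with median-of-ratios scaling, -0.031 without the library set, -0.017 with the block and -0.34 to 0.46 leaving out 1 animal. That of Itgax was 0.0057 on TPM and 0.37 on reads with all 24 libraries, and the sex difference of Itgax -0.32 on reads with all 24.

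Itga4 in ∆UCS males was -0.065 to 0.80 on reads leaving out 1 animal, and for ∆UCS minus Bmp2+/+ in Kl/Kl males 0.22 in mean TPM but -0.29 on reads. Itgam for ∆UCS minus Bmp2+/+ in control males was 0.039 in mean TPM but -0.059 in limma without the filter.

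Replicate numbers gave no sign of pairing. Of same-number pairs 23 of 50 correlated above 0.1 (median 0.046), and of different-number pairs 58 of 151 (median 0.016). Some controls and Kl/Kl animals of equal age have neighbouring library names but different replicate numbers. Whether such animals were paired was not tested, and no fit paired animals by library name. A replicate block called the same number of members, 1, 2 and 1 of 5, beside 95, 184 and 50 of 9933 genes, with Itgax at 2.42, 3.07 and 1.85. Depth limits Itgad, at 0 to 13 estimated reads per control.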
